A study of Mus musculus with 18 samples.

Results

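The genes described here are 10 listed as genes of pro-B and pre-B cells of the bone marrow, and not all are confined to those cells. They are Pax5, Ebf1, Cd79a, Cd79b, Vpreb1, Vpreb3, Igll1, Rag1, Rag2 and Dntt. They were taken as a list by symbol, and where a symbol had several probe sets the brightest one on average was to be used. Of the 10 genes, 9 had a named probe set, 1 each, among the 19505 named genes of the array. Rag1 was not analysed here. RNA came from femur and tibia marrow preparations labelled as mesenchymal stromal cells, from NeuT and BALB/c mice, with 1 array per mouse. The groups were 5 NeuT mice of 12 weeks, labelled as an early stage of breast cancer, 5 control BALB/c mice of 12 weeks, 4 NeuT mice of 24 weeks, labelled as a late stage, and 4 control BALB/c mice of 24 weeks. As background, NeuT mice carry an activated rat Erbb2 oncogene under a mammary tumour virus promoter, which is active chiefly in mammary epithelium. Both NeuT groups are labelled as bearing tumours, so the transgene and the tumours cannot be told apart. Marrow cells had been depleted with beads for CD45, Ter119, CD11b, CD11c, CD3, Gr1 and B220, and were characterised by flow cytometry as lacking CD45 and carrying CD29 and CD44.

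B cells arise in the marrow from lymphoid progenitors under the transcription factors EBF1 and PAX5, which commit the cells to the B lineage. Pro-B cells cut and join the gene segments of the immunoglobulin heavy chain with the RAG1 and RAG2 recombinase, while the polymerase TdT, encoded by Dntt, adds bases at the joints. Pre-B cells then test the new heavy chain in the pre-B receptor, in which the surrogate light chain, made of VpreB and lambda 5 (encoded by Igll1), stands in for the later light chain and CD79A and CD79B carry the signal into the cell.

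The promoters of 4 members are shown, as the ones that held a string tied to B-cell transcription factors. They are the 250 bases before the gene start in RefSeq (GRCm38.p6), read 5′ to 3′ on the gene's strand. Of the 9 measured members 8 had an entry, with 9 windows in all. Capitals mark 3 strings searched on both strands: CCCNNGGG, the core read by early B-cell factor, CAGGTG, an E-box of the kind read by E2A, and the octamer ATTTGCAT, known from immunoglobulin promoters. The strings were chosen after the sequences had been seen.
Igll1 (chr16:16863986-16864235, minus strand): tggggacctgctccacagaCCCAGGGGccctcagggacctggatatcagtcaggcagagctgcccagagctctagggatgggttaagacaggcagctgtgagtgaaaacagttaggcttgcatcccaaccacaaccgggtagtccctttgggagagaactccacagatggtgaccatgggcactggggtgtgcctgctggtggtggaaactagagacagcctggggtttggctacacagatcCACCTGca
Vpreb1 (chr16:16869256-16869505, minus strand): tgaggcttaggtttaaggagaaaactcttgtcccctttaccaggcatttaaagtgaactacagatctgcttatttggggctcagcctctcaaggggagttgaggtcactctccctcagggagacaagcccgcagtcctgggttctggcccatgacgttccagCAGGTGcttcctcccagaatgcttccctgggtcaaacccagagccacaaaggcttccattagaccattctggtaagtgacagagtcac
Vpreb3 (chr10:75948050-75948299, plus strand): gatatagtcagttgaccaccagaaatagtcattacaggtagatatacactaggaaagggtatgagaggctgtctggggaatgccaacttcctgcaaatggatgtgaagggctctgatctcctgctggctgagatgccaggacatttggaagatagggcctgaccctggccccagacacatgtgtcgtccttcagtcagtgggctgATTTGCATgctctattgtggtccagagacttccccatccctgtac
Cd79a (chr7:24897247-24897496, plus strand): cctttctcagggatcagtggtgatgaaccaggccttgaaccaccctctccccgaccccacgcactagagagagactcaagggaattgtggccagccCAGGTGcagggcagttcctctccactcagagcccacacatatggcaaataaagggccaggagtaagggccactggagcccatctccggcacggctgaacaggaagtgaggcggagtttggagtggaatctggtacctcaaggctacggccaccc

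Igll1 and Vpreb1 are neighbours on chromosome 16. The E-box string was found before Igll1 (as CACCTG, the same string on the other strand), Vpreb1 and Cd79a, in 3 of the 9 member windows, against 17.2% of all 32851 windows of this length. The early B-cell factor string was found in 1 member window, that of Igll1, against 11.8% of all windows. The octamer was found in 1, that of Vpreb3, against 1.6%. The marked strings do not overlap one another. A match is a description of the letters and does not show that a factor binds there. The lack of a match does not show that a window has no site, since only exact strings were searched.

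Of the 9 genes 6, namely Pax5, Ebf1, Cd79a, Vpreb1, Vpreb3 and Igll1, gave signals above nearly all negative controls in every BALB/c preparation, although CD45 and its B-cell form B220 were among the depleted antigens. On the log2 scale of the deposited signals, the 5222 negative control probe sets had a 95th percentile of 10.46, and Ebf1 and Cd79a were brighter than that in all 18 arrays. Vpreb1 was brighter than it in 17 arrays, Vpreb3 in 16, Pax5 and Igll1 in 15 each and Cd79b in 7. Dntt lay between 8.23 and 10, above the control median of 7.35 and under that percentile in every array. Rag2 lay between 6.82 and 7.76, above the control median in 8 arrays only, so its signals hardly stand out from background. Ptprc, the gene for CD45 and B220, gave 11.70 to 12.45 over all arrays, with a difference between NeuT and BALB/c mice that is given below. The mean of 11 stromal marker genes ran from 7.94 to 8.31, with each array's mean under the percentile given above. The mean of 6 general B-cell markers, 8.17 to 9.28, was also under it in each array. So were those of the T and NK cell, monocyte and macrophage, dendritic cell and endothelial markers, while neutrophil and erythroid means lay above it. A mean over a list and a percentile of single probe sets are unlike measures. Array medians ran from 8.43 to 8.56 over all genes. The lowest median correlations with the other arrays were 0.987 for NeuT 12-week replicate 4, 0.988 for BALB/c 24-week replicate 3 and 0.991 for NeuT 24-week replicate 1. Probe sets differ in how they bind, so signals of different genes are not ranked here.

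The commitment factors were compared first. Both were lower in NeuT mice when the effect was averaged over the ages. A gene was called where limma, a linear model with variances moderated across genes, gave a p adjusted over all genes under 0.05. Pax5 (Entrez gene 18507), the factor that fixes B-cell identity, read 9.82, 10.96, 11.30, 10.94 and 11.84 in NeuT mice of 12 weeks, against 11.73, 11.74, 11.65, 11.87 and 11.62 in BALB/c mice of 12 weeks. At 24 weeks it read 10.22, 11.66, 11.38 and 10.43 in NeuT mice, against 11.62, 11.86, 12.22 and 12.02 in BALB/c mice. The BALB/c values of 12 weeks lie close together and 4 of the 5 NeuT values lie under all of them, while 1 NeuT mouse at each age reached the BALB/c range. Averaged over the ages, Pax5 fell to 54.4% of its BALB/c signal (log2 difference -0.88 ± 0.20 SE, limma adjusted p = 0.00780).

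Ebf1 (Entrez gene 13591), which acts before and together with PAX5 and is also used by stromal and fat cells, read 11.26, 12.19, 12.52, 12.51 and 12.76 in NeuT mice of 12 weeks, against 12.82, 12.83, 12.70, 12.94 and 12.81 in BALB/c mice. Ebf1 signals at 24 weeks were 11.61, 12.74, 12.37 and 11.79 in NeuT mice, against 12.64, 12.77, 13.04 and 12.90 in BALB/c mice. Here too a single NeuT mouse at each age lay within the BALB/c range and the others lay under it. Averaged over the ages Ebf1 fell to 64.2% of its BALB/c signal (log2 difference -0.64 ± 0.16 SE, limma adjusted p = 0.0124).

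The signalling chains of the receptor followed. Cd79b (Entrez gene 15985) read 8.96, 9.75, 10.10, 10.35 and 10.41 in NeuT mice of 12 weeks, against 10.64, 10.69, 10.60, 10.66 and 10.23 in BALB/c mice. In the older mice Cd79b read 9.23, 10.41, 10.14 and 9.4 in NeuT mice, against 10.35, 10.63, 10.96 and 10.73 in BALB/c mice. The groups overlapped at both ages, at 12 weeks only through the lowest BALB/c mouse. Averaged over the ages Cd79b had the smallest p of the members and fell to 59.0% of its BALB/c signal (log2 difference -0.76 ± 0.17 SE, limma adjusted p = 0.00656).

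Its partner Cd79a (Entrez gene 12518) read 10.48, 11.27, 11.63, 12.08 and 11.87 in NeuT mice of 12 weeks, against 12.10, 11.73, 11.96, 12.22 and 11.99 in BALB/c mice. The 24-week signals of Cd79a were 10.59, 11.83, 11.64 and 10.71 in NeuT mice, against 11.72, 12.01, 12.37 and 12.17 in BALB/c mice. Only 10.48 at 12 weeks and 10.59 and 10.71 at 24 weeks lie more than 1 log2 unit under every BALB/c value of that age. The highest NeuT value at each age lies among the BALB/c values. Averaged over the ages Cd79a fell to 61.4% (log2 difference -0.70 ± 0.18 SE, limma adjusted p = 0.0166).

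The genes of the surrogate light chain and its relatives did not all pass. Vpreb3 (Entrez gene 22364), which encodes a VpreB-like protein that binds newly made heavy chains, read 9.89, 11.04, 11.27, 11.72 and 11.60 in NeuT mice of 12 weeks, against 11.76, 11.87, 11.55, 11.83 and 11.62 in BALB/c mice. At 24 weeks it read 10.32, 11.69, 11.30 and 10.52 in NeuT mice, against 11.62, 11.75, 11.81 and 11.99 in BALB/c mice. As for Pax5, the NeuT mice ran from well under the BALB/c mice into their range. Averaged over the ages Vpreb3 fell to 60.4% (log2 difference -0.73 ± 0.19 SE, limma adjusted p = 0.0193).

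Vpreb1 and Igll1 (Entrez genes 22362 and 16136), which encode the surrogate light chain itself, missed the threshold. Vpreb1 ran from 9.99 to 11.76 in NeuT mice of 12 weeks, against 11.24 to 11.90 in BALB/c mice, and from 10.61 to 11.70 in NeuT mice of 24 weeks, against 11.20 to 11.86 in BALB/c mice. Its log2 difference averaged over the ages was -0.44, with a 95% interval of -0.83 to -0.056 (limma adjusted p = 0.140). Igll1 ran from 9.76 to 11.24 in NeuT mice of 12 weeks, against 10.73 to 11.43 in BALB/c mice, and from 10.23 to 11.21 in NeuT mice of 24 weeks, against 10.84 to 11.42 in BALB/c mice. Its log2 difference was -0.39, with an interval of -0.73 to -0.041 (limma adjusted p = 0.148). These intervals overlap those of the members that passed, and the differences between members were not tested. Vpreb2, a close copy of Vpreb1 whose probes may share its transcripts, had a log2 difference of -0.28 (limma adjusted p = 0.0915), and the values of both genes are uncertain for that reason.

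The recombination genes gave values nearer to 0. Dntt (Entrez gene 21673) read 8.23, 8.91, 9.27, 10 and 9.55 in NeuT mice of 12 weeks, against 8.76, 9.09, 8.81, 8.92 and 9.70 in BALB/c mice. In the 24-week groups Dntt read 8.85, 9.62, 9.27 and 9.0 in NeuT mice, against 9.75, 9.36, 8.63 and 9.51 in BALB/c mice. NeuT and BALB/c values were interleaved at both ages. The log2 difference averaged over the ages was 0.0030, with a 95% interval of -0.39 to 0.39 (limma adjusted p = 0.994), which leaves room for a shift of up to 0.39 either way; its sign changed with the normalisation. Rag2 (Entrez gene 19374) ran from 6.87 to 7.76 in NeuT mice of 12 weeks, against 7.15 to 7.61 in BALB/c mice, and from 6.82 to 7.43 in NeuT mice of 24 weeks, against 7.20 to 7.62 in BALB/c mice. Its log2 difference was -0.25 (limma adjusted p = 0.121), and since it lies at background the size of any change in transcript level is not known.

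**Figure D1:**
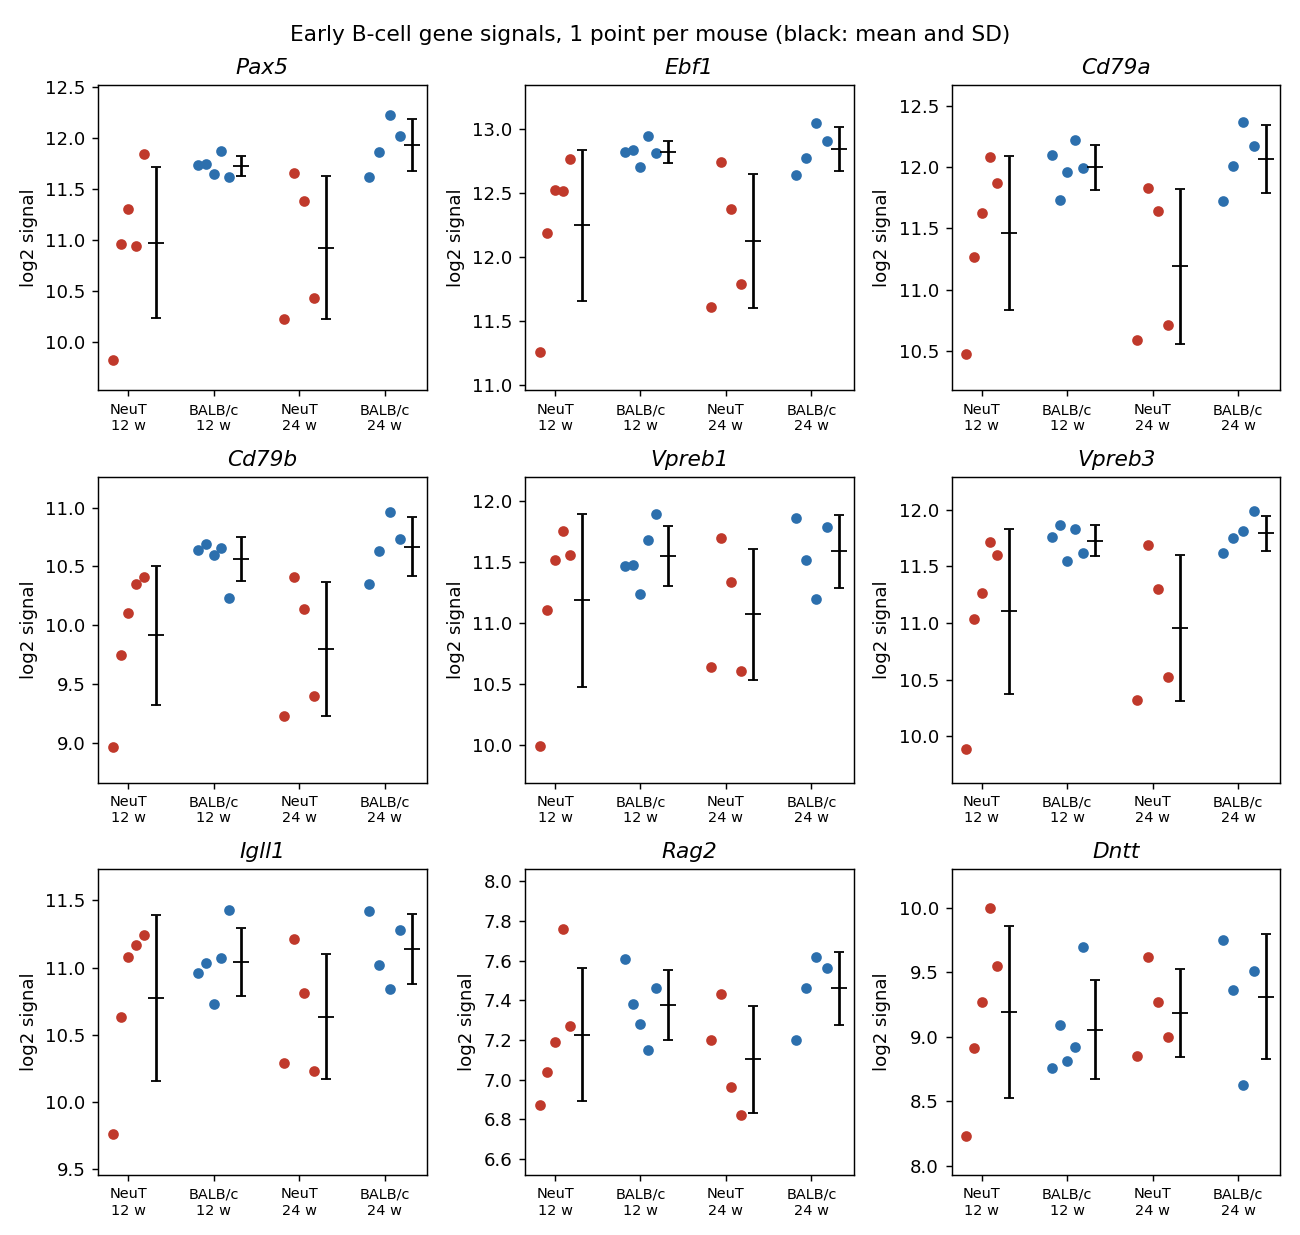
Log2 signal (vertical axis) of the 9 measured early B-cell genes in each group (horizontal axis; red, NeuT; blue, BALB/c), with 1 point per mouse in replicate order and the mean and SD in black beside the points (n = 5 per group at 12 weeks, 4 at 24 weeks). Pax5 runs from 9.82 to 11.84 in NeuT mice of 12 weeks, against 11.62 to 11.87 in BALB/c mice, while Dntt runs from 8.23 to 10, against 8.76 to 9.70.

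At the single ages none of the 9 members passed the test. At 12 weeks 8 of 9 had a log2 difference under 0, with a median of -0.53, beside a median of -0.025 over all genes. Pax5 had a log2 difference of -0.75 (95% interval -1.30 to -0.19), Cd79b of -0.65 and Vpreb3 of -0.62, and Dntt, at 0.13, was the exception in sign. The smallest adjusted p was 0.100, for Cd79b, and 5 members had an unadjusted p under 0.05, all lower, as had 9.41% of all genes in that direction (limma). Of all genes 0.687% were called lower at 12 weeks and 3.15% higher. At 24 weeks all 9 measured members had a difference under 0, with a median of -0.71, beside -0.00014 over all genes. Pax5 had a log2 difference of -1.01 (95% interval -1.63 to -0.39), or 49.7% of the BALB/c signal, Cd79a of -0.88, Cd79b of -0.87 and Dntt of -0.13. The smallest adjusted p was 0.0862, again for Cd79b, and 6 had an unadjusted p under 0.05, all lower, as had 4.02% of all genes in that direction (limma). Of all genes 0.22% were called lower and 1.18% higher. In no member did every NeuT array lie under every BALB/c array of its age, which was so for 2.82% of all genes at 12 weeks and 1.76% at 24 weeks.

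The shares over all genes depended on single arrays. The 749 genes called at 12 weeks became 1363 without NeuT replicate 5 and between 303 and 498 without any 1 of the other 4 NeuT mice. They became 230 without BALB/c replicate 2 and between 316 and 484 without BALB/c replicate 1, 4 or 5. The 274 genes called at 24 weeks became 8, 641 and 9 without NeuT replicate 1, 2 or 4, and 71, 154 and 22 without BALB/c replicate 1, 2 or 3. Lower genes made up 134 of the 749 at 12 weeks, against 224 of 687 after a further quantile normalisation and 223 of 711 after cyclic loess. At 24 weeks they were 43 of 274, against 35 of 114 and 28 of 101 with these normalisations, and for the mean of both ages 408 of 1670, against 607 of 1559 and 571 of 1572.

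The call of 5 of 9 members rests on the average of the effects at both ages, in which 2.09% of all genes were called lower and 6.47% higher. No member was called higher. The median log2 difference of the members was -0.64, beside -0.017 over all genes. With a separate variance for each group and no moderation, chosen after seeing the data, 0 of the 9 members passed (adjusted p from 0.107 to 0.152 for the 5 genes, with 5 members at an unadjusted p under 0.05), and 9 of all genes. Leaving out the 3 arrays of lowest correlation named above, also chosen after seeing the data, 3 passed (Cd79a, Cd79b and Vpreb3).

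**Figure D2:**
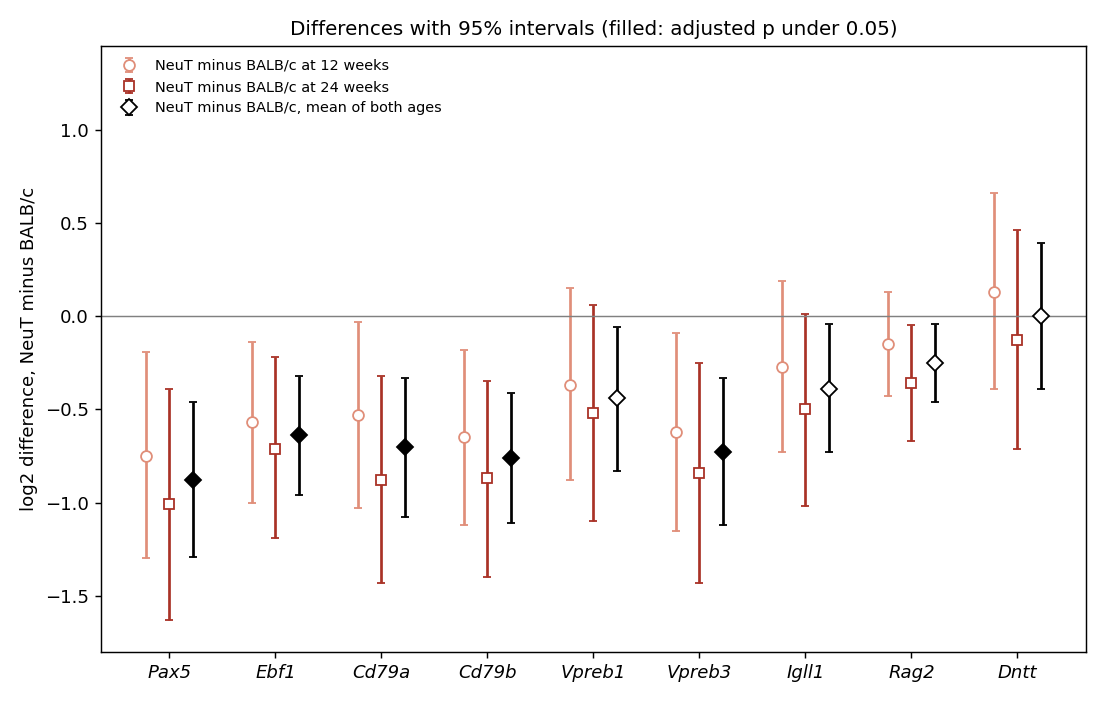
Log2 difference, NeuT minus BALB/c (vertical axis), of each early B-cell gene (horizontal axis) at 12 weeks, at 24 weeks and as the mean of both ages, with 95% intervals from the limma fit. Filled symbols mark an adjusted p under 0.05 over all genes; the only filled ones are the means of Pax5, Ebf1, Cd79a, Cd79b and Vpreb3, from -0.88 to -0.64.

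No member passed in the comparisons that involve age. The NeuT effect at 24 weeks minus that at 12 weeks had values between -0.34 and -0.14 over the members, with adjusted p from 0.913 to 0.973 (limma). From 12 to 24 weeks the differences ran from -0.27 to -0.0081 in NeuT mice and from 0.015 to 0.25 in BALB/c mice, and 0 of 9 members passed in any of these 3 comparisons; no member had an unadjusted p under 0.05, against 6.5% of all genes for the difference of effects, 12.6% for age in NeuT mice and 15.3% for age in BALB/c mice. Of all genes 0.0103% passed for the difference of effects, 0.0359% for age in NeuT mice and 0.579% for age in BALB/c mice. Any batch shared by the mice of one age cannot be told apart from age.

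The mice of the NeuT groups differed widely from one another. Relative to the BALB/c mean of the same age, the mean of the 9 members was -1.40 in NeuT 12-week replicate 1, -0.55 in replicate 2, -0.22 in replicate 3, 0.049 in replicate 4 and 0.027 in replicate 5. In NeuT mice of 24 weeks it was -1.10 in replicate 1, -0.058 in replicate 2, -0.40 in replicate 3 and -1.03 in replicate 4. In BALB/c mice it stayed between -0.15 and 0.13. The lowest were replicate 1 of 12 weeks and replicates 1 and 4 of 24 weeks. The 0.049 of replicate 4 of 12 weeks averages members that go opposite ways: Pax5 was at -0.78, Ebf1 at -0.31 and Cd79b at -0.21, while the dim genes Dntt and Rag2 were at 0.95 and 0.39. The narrow BALB/c range also averages over such members. In BALB/c replicate 3 of 24 weeks, with a mean of -0.013, Pax5 was at 0.29 and Cd79a at 0.30. Vpreb1 was at -0.40 in that mouse, Igll1 at -0.30 and Dntt at -0.69.

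The SD of Pax5 was 0.74 in NeuT and 0.099 in BALB/c mice at 12 weeks, and 0.70 in NeuT and 0.25 in BALB/c mice at 24 weeks. At 12 weeks the SD in NeuT mice was above that in BALB/c mice for all 9 measured members, with a median ratio of 3.18 and a range of 1.76 to 7.50. Over all genes this ratio had a median of 1.2 and was above 1 for 61.6%. At 24 weeks it was above 1 for 8 members, with Dntt the exception at 0.704, and had a median of 2.24, while over all genes the median was 0.645 and 28.6% were above 1. The difference in spread was not tested.

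**Figure D3:**
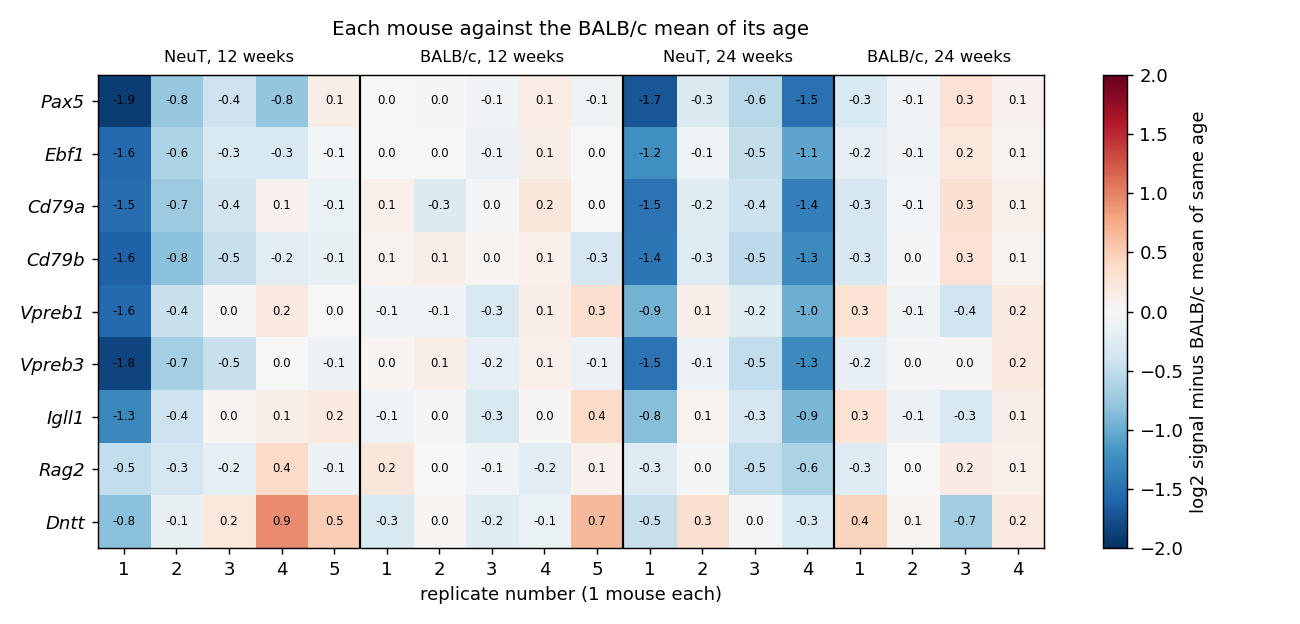
Log2 signal of each early B-cell gene (rows) in each mouse (columns, by group and replicate number) minus the mean of the BALB/c mice of the same age, as colour and as a number. NeuT replicate 1 of 12 weeks and replicates 1 and 4 of 24 weeks are lowest, at -1.90, -1.71 and -1.50 for Pax5, and Dntt is at 0.95 in NeuT replicate 4 of 12 weeks.

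The proportion between members also differed from mouse to mouse. The log2 signal of Pax5 minus that of Dntt was 1.60, 2.05, 2.03, 0.94 and 2.29 in NeuT mice of 12 weeks, against 2.96, 2.65, 2.84, 2.95 and 1.91 in BALB/c mice. At 24 weeks it was 1.37, 2.04, 2.11 and 1.43 in NeuT mice, against 1.87, 2.50, 3.59 and 2.51 in BALB/c mice. At 12 weeks 4 of 5 BALB/c mice lay above every NeuT mouse, and at 24 weeks 3 of 4 did. The exceptions, BALB/c replicate 5 of 12 weeks and replicate 1 of 24 weeks, had the highest Dntt of their groups, 9.70 and 9.75, and the second had the lowest array median of all, 8.43. Dntt stayed under the 95th percentile of the negative controls in every array, so the size of these differences in transcript levels is not known. This pair of genes was picked after its values were seen, and no test was made on it.

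As deviations from the group means pooled over the 18 arrays, the members tended to vary together, but not within every group. Pearson's r of each member with the mean of the others was 0.977 for Vpreb3, 0.952 for Ebf1, 0.922 for Cd79a, 0.910 for Vpreb1, 0.900 for Igll1, 0.895 for Cd79b, 0.857 for Pax5, 0.703 for Dntt and 0.587 for Rag2. Without the 2 arrays farthest from the median, NeuT 12-week replicate 1 and NeuT 24-week replicate 2, these values ran from 0.945 for Vpreb3 down to 0.374 for Rag2. The genes outside the list most like the members' mean were Rsph9, Slamf6, Myl4, Trp53i11, Id3, Slamf7, Fcrla and Blnk, with r from 0.950 to 0.976 over 18 arrays and from 0.900 to 0.949 without those 2 arrays. Within the BALB/c mice of 24 weeks some members went opposite ways. In replicates 1 and 3 Pax5 was at -0.31 and 0.29 from the group mean and Cd79a at -0.34 and 0.30. Igll1 was at 0.28 and -0.30 in the same mice, Vpreb1 at 0.27 and -0.40 and Dntt at 0.44 and -0.69. The arrays share their processing, and these correlations are descriptions.

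Other genes of the pathway were taken from 9 lists, which held 79 measured genes besides the members. Averaged over the ages 24 of the 79 were lower and 5 higher in NeuT mice, against 2.09% and 6.47% of all genes. At 24 weeks alone 7 were lower and 2 higher, against 0.22% and 1.18%. The 7 were Spib, Pou2af1, Ikzf3, Cd2, Blk, Enpep and Xrcc6, and the 2 were Tslp and Vcam1. At 12 weeks 1 was lower and 2 higher (Vav1 and Tslp), against 0.687% and 3.15%. The 1 was Jchain (-0.61, limma adjusted p = 0.0238), at -0.032 at 24 weeks. The lists that follow are given for the mean of both ages. Among 16 further transcription factors of the B lineage 9 fell and none rose, with a list median of -0.45. The largest falls were those of Spib (-1.04 on the log2 scale, limma adjusted p = 0.00350), an ETS factor of B and plasmacytoid dendritic cells, Pou2af1 (-0.78, adjusted p = 0.00247), the B-cell co-activator of octamer factors, Bach2 (-0.78, adjusted p = 0.00810), a repressor active in B-cell development, and Irf4 (-0.75, adjusted p = 0.00707), which acts at light-chain rearrangement and in plasma cells.

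Of 12 genes of pre-B receptor signalling 5 fell and 1 rose, with a median of -0.17. The surface protein gene Cd72 fell by 0.82 on the log2 scale (limma adjusted p = 0.0105), the kinase gene Blk by 0.71 (adjusted p = 0.00371) and the adaptor gene Blnk by 0.70 (adjusted p = 0.0200). Vav1, an exchange factor gene used by many blood cells, rose by 0.34 (adjusted p = 0.00175). Of 9 surface antigens of B-cell precursors, some shared with the other lists, 5 fell and none rose, with a median of -0.26. They included Cd2 (-0.81, adjusted p = 0.00118) and Enpep (-0.46, adjusted p = 0.00353), which encodes the early B-cell antigen BP-1. Ptprc was another (-0.26, adjusted p = 0.0343). Among genes of other depleted antigens, Itgam, for CD11b, rose (0.49, adjusted p = 0.00283) and Cd3e fell (-0.36, adjusted p = 0.0155). Itgax, for CD11c, did not pass (0.12, adjusted p = 0.337).

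Among 9 genes of the interleukin-7 receptor and of progenitor cytokine receptors 2 fell and 2 rose, with a median of -0.028. Il7r, the receptor through which mouse B-cell precursors are kept alive, fell by 0.54 (limma adjusted p = 0.0159), and the feedback gene Socs2 by 0.29 (adjusted p = 0.0382). Flt3 and Kit, receptor genes of earlier progenitors, rose by 0.27 and 0.20 (adjusted p = 0.0243 and 0.0297). Of the 10 further genes of V(D)J recombination and end joining 2 fell, Polm (-0.39, adjusted p = 0.0175) and Xrcc6 (-0.22, adjusted p = 0.0305), and the list median was 0.014.

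Of 8 genes of mature B cells 2 fell, Fcmr (-0.45, limma adjusted p = 0.0165) and Ccr7 (-0.24, adjusted p = 0.0390), and the median was -0.16. Of 7 plasma cell genes 2 fell, Irf4 and Mzb1 (-0.60, adjusted p = 0.0153), with a median of -0.13. Of 10 genes through which stromal cells support B lymphopoiesis 2 rose and none fell, with a median of -0.046. They were Tslp (0.60, adjusted p = 6.07e-05), a cytokine gene, and Vcam1 (0.32, adjusted p = 0.00326), an adhesion molecule gene. Tslp ran from 7.95 to 8.31 in NeuT and from 7.76 to 7.89 in BALB/c mice at 12 weeks, and from 8.22 to 8.59 in NeuT and from 7.39 to 7.88 in BALB/c mice at 24 weeks, near the control median and far under the 95th percentile of the controls, so the size of its change in transcript level is not known. Il7 and Cxcl12, which encode the survival factor and the chemokine of the B-cell niche, had differences of -0.058 and -0.078 (adjusted p = 0.683 and 0.361), and Il7 lay between 4.95 and 5.65, under the control median.

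Some markers of other blood cells also differed between NeuT and BALB/c mice. Of 12 neutrophil markers 10 rose and none fell on average over the ages, and their mean ran from 11.32 to 12.40 in NeuT and from 11.12 to 11.68 in BALB/c mice at 12 weeks, and from 11.56 to 12.38 in NeuT and from 11.13 to 11.55 in BALB/c mice at 24 weeks. The NeuT mouse with the lowest neutrophil mean at each age, replicate 5 at 12 weeks (11.32) and replicate 2 at 24 weeks (11.56), had a 9-gene mean close to that of the BALB/c mice. Other NeuT mice did not follow this order. Replicate 1 of 12 weeks, with the lowest 9-gene mean (-1.40 from BALB/c), had a neutrophil mean of 11.91, under those of replicates 2, 3 and 4. At 24 weeks replicate 3 had the highest neutrophil mean (12.38) and a 9-gene mean of -0.40 from BALB/c. Replicate 4 of 12 weeks had the highest neutrophil mean (12.40), with Pax5 and Ebf1 under every BALB/c mouse of its age and Vpreb1, Igll1 and Dntt above their BALB/c means. Of 9 T and NK cell markers 2 fell, Cd3e (-0.36, limma adjusted p = 0.0155) and Gzma (-0.87, adjusted p = 0.000377), with means of 7.74 to 8.31 in NeuT and 7.94 to 8.13 in BALB/c mice at 12 weeks and 7.69 to 7.92 in NeuT and 7.88 to 8.38 in BALB/c mice at 24 weeks. Of 5 erythroid markers none passed, with means of 11.37 to 11.77 in NeuT and 11.82 to 12.02 in BALB/c mice at 12 weeks and 10.76 to 11.74 in NeuT and 11.29 to 11.60 in BALB/c mice at 24 weeks. Of 9 monocyte and macrophage markers 4 rose and 1 fell. Of 7 dendritic cell markers 1 rose, Flt3, which is also in the receptor list above. Of 6 endothelial markers 1 fell, Cdh5. Of 11 stromal markers 2 rose, Igfbp5 and Vcam1, and Vcam1 is also among the support genes above. The 6 measured markers of B cells in general had means of 8.27 to 8.84 in NeuT and 8.71 to 8.98 in BALB/c mice at 12 weeks, and of 8.17 to 8.76 in NeuT and 8.80 to 9.28 in BALB/c mice at 24 weeks, and 3 of them fell (Cd72, Blk and Cd22). The part of these markers in the result was not tested, and in such mixed preparations fewer cells of a type and less RNA per cell cannot be told apart.

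**Figure D4:**
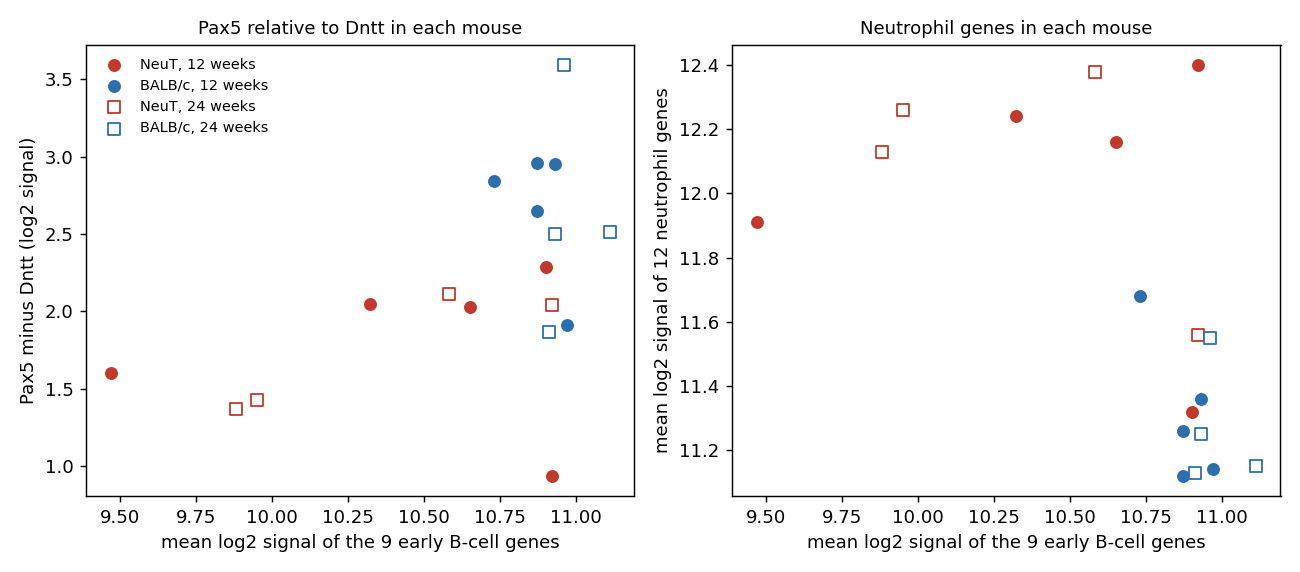
Each point is a mouse (red, NeuT; blue, BALB/c; filled circles, 12 weeks; open squares, 24 weeks), with the mean log2 signal of the 9 early B-cell genes on the horizontal axis. The vertical axis is the log2 signal of Pax5 minus that of Dntt on the left (0.94 to 2.29 in NeuT, 1.87 to 3.59 in BALB/c mice) and the mean log2 signal of 12 neutrophil genes on the right (11.32 to 12.40 in NeuT, 11.12 to 11.68 in BALB/c mice).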

How the data were processed

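Each deposited value is the log2 signal of a probe set. RMA and the Transcriptome Analysis Console are named in the submitters' processing notes. RMA corrects background, quantile-normalises the arrays and summarises probes. No version, genome build or batch is given in the sources used here. Of 29129 probe sets, 19572 had 1 gene symbol, which gave 19505 genes. RMA makes each signal relative to the rest of its array.

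The linear model had 1 mean for every group (limma 3.58.1, R 4.3.3, 14 residual and 8.68 prior degrees of freedom), with two-sided tests and Benjamini-Hochberg adjustment over all genes at 0.05. The mean of both ages weights them equally. The fit was tested on simulated data in which each gene had the same spread in all groups. The simulation therefore could not check the effect of unequal spreads. The genes, lists and naming rule (every member, and up to 4 genes past the threshold per list and comparison) were chosen with earlier results of these data known. List genes past the threshold were named for the comparisons of NeuT with BALB/c mice only, not for those that involve age. Besides the members, 79 of the 92 listed pathway genes were measured. Alternatives changed the normalisation, dim-gene filter, probe choice, variance model and arrays used. Replicates are different mice, numbered in deposit order; the labels give 2 different IDs for NeuT 12-week replicate 4. The number of arrays limits the precision. Figures used matplotlib 3.10.9 in Python 3.11.15.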

Additional observations from a re-analysis of the deposited data

Results flagged for a closer look

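Over 36 sets of values (9 members in 4 groups), 1 sample lay far from the rest of its group: Cd79b in BALB/c 12-week replicate 5, at 10.23 against 10.60 to 10.69 in the other BALB/c mice of 12 weeks. Its gap to the nearest mouse was 0.80 of the range of the group. Chance alone marks about 1 set in 20. The same mouse had the highest Igll1 and Dntt signals of its group, 11.43 and 9.70. The cause was not tested.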

How the results depend on the processing

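For the mean of both ages the number of members called, 5, was 3 with trend and robust moderation, 3 without the 3 arrays of lowest correlation (a choice made after seeing the data, like the separate variances and 1 array weight per group) and 0 with a separate variance per group, where the fit no longer shares variances between groups or genes. It was 5 or 6 in the other alternatives, and 3 to 6 when 1 array was left out. It was 3 without NeuT 24-week replicate 4, where Cd79a and Vpreb3 missed the threshold, and 4 without NeuT 24-week replicate 1, where Vpreb3 missed it (adjusted p = 0.0572). The count of 0 members at 12 weeks became 3 with array weights and ran from 0 to 3 when 1 array was left out, with the 3 reached without NeuT 12-week replicate 5. The count of 0 at 24 weeks became 1 with array weights and ran from 0 to 5 when 1 array was left out, with the 5 reached without NeuT 24-week replicate 2. Medians of the members moved by less than 0.396 in every alternative. That value is the within-group SD of the members' array means, pooled over the groups, and the NeuT mice spread more widely than the BALB/c mice. Without NeuT 12-week replicate 1 the 12-week median was -0.28, against -0.53 with all arrays. Of all genes, 1670 were called for the mean of both ages, 992 without NeuT 24-week replicate 4 and 979 without its replicate 1, and 873 without the 3 arrays. The 749 at 12 weeks were 490 over all probe sets with controls, 1175 with 1 array weight per group, 2088 with array weights and 9 with separate variances. The 274 at 24 weeks were 577 with array weights, 15 without the 3 arrays, 11 with 1 array weight per group, 10 over all probe sets with controls, 1 on only the groups compared and 0 with separate variances (1456 at an unadjusted p under 0.05). Each change of sign was in a value that did not pass. Dntt was -0.0026 at 12 weeks and -0.12 for the mean of both ages with array weights, -0.012 for that mean after cyclic loess and -0.012 after a further quantile normalisation, and -0.069 and -0.16 without the 3 arrays. With array weights the age difference was -0.022 for Ebf1 in BALB/c and 0.13 for Dntt in NeuT mice. Without the 3 arrays the values were, for the difference of effects, Pax5 0.062, Ebf1 0.17, Cd79a 0.11, Cd79b 0.17, Vpreb1 0.0020, Vpreb3 0.15; for age in NeuT mice, Pax5 0.18, Ebf1 0.12, Cd79a 0.080, Cd79b 0.18, Vpreb1 0.17, Vpreb3 0.22, Igll1 0.074, Dntt 0.31; and for age in BALB/c mice, Ebf1 -0.054, Cd79a -0.029. With 1 array left out the ranges of values that changed sign were, at 12 weeks, Dntt -0.069 to 0.38; at 24 weeks, Dntt -0.36 to 0.018; for the mean of both ages, Dntt -0.11 to 0.12; for the difference of effects, Ebf1 -0.38 to 0.035, Vpreb1 -0.45 to 0.00087; for age in NeuT mice, Dntt -0.25 to 0.20, Ebf1 -0.37 to 0.050, Vpreb1 -0.41 to 0.039, Pax5 -0.34 to 0.18, Vpreb3 -0.45 to 0.062, Rag2 -0.23 to 0.0090, Cd79b -0.36 to 0.071; and for age in BALB/c mice, Ebf1 -0.054 to 0.081, Vpreb1 -0.052 to 0.17, Cd79a -0.029 to 0.19. The cause of these changes was not tested. The dim-gene filter leaves out Rag2, and a fit on only the groups compared does not exist for the comparisons that use all 4 groups. No paired analysis was possible because the labels give each mouse its own ID and no number shared between groups.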
